A study of Equus caballus with 6 samples.

Results

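Small RNA reads were compared over the 3628 sequences that were read at least 3 times in every one of 6 testis libraries of the Mongolian horse, 3 of mature testis and 3 of immature testis. These shared sequences were selected on their read counts, and they are 3628 of the 4936717 distinct sequences in the table, or 0.0735%. The table holds raw read counts of small RNAs, 25 to 32 nt long, which the submitters treat as piRNAs. Both groups share breed and tissue, the labels give no treatment, and the sources used here give no ages and no stage of spermatogenesis. The labels do not say that the 3 libraries of a group came from separate animals, so every p-value below measures only the spread between these libraries, which may be technical. In whole testis, fewer cells of a type and less RNA per cell cannot be told apart.

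piRNAs are small RNAs of the germ line that are bound by PIWI proteins and guide them to transposon transcripts and other targets. In mammals most piRNAs begin with U, written T in the table, because the PIWI protein holds that base. In the ping-pong cycle, a PIWI protein cuts a target opposite the tenth base of its piRNA, and the cut end becomes the start of a new piRNA. The new piRNA then overlaps the old one by its first bases and carries A at position 10. In the mouse, spermatogonia carry piRNAs that derive largely from transposons and messenger RNAs, and spermatocytes at pachytene make piRNAs from dedicated loci that are mostly free of transposons. Fragments of tRNAs, rRNAs and snoRNAs fall in the same size range and can enter tables of called piRNAs.

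The most abundant shared sequences and their close variants come first, because they head the rank order of one group or both. Capitals mark position 1, and position 10 where it holds A. The table does not annotate its sequences. As background, the first 6 below have the letters of the 5′ end of the mammalian glycine tRNA with anticodon GCC or differ from it by a base, the seventh is a longer form with another first base, and the next 3 begin like the glutamate tRNA with anticodon TTC. The last 3 are left unnamed.
uniq_2076883: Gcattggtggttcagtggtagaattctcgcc
uniq_3790290: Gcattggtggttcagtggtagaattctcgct
uniq_2080573: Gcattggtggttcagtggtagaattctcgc
uniq_3790284: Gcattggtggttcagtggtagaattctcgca
uniq_3181825: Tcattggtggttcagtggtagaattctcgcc
uniq_3045444: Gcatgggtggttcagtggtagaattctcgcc
uniq_4072286: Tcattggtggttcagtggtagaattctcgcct
uniq_4708970: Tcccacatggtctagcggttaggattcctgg
uniq_4708991: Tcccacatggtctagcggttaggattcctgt
uniq_3504546: Tcccatatggtctagcggttaggattccc
uniq_274482: TggataaatAaattgtggtatatttctgca
uniq_358364: TggataaatAaattgtggtatatttctgc
uniq_2089930: CatttattgAgtgtctactgtgtgcttc

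Rank below means the position of a sequence among the 3628 when they are sorted by the mean CPM of a group (counts scaled to a common library total), with rank 1 the most abundant. Among sequences whose groups did not overlap, the 5 that gained most ranks in mature against immature testis are shown because they mark one end of the rank change.
uniq_2081142: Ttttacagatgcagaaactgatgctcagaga
uniq_1724014: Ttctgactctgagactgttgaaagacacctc
uniq_2680145: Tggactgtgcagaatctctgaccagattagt
uniq_4686341: TggaattcaAcatttcaaagatagtgctgt
uniq_2073955: Ttttacagatgcagaaactgatgctcaga

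The 5 such sequences that lost most ranks in mature testis mark the other end, and all are shorter than the 5 above.
uniq_321222: CcattgagtAtgatgttggctgtgggt
uniq_2496923: Tagaagagtcagatctctgaacacagtg
uniq_3433419: TactgatagActttgtggcttaggcag
uniq_357930: Ttgaacataggctgctaagactgatg
uniq_4062144: TgctaactgAcctgatcatgctggaca

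The next sequences show the extremes of replicate spread: 4 of the 5 with the most even level over all 6 libraries, the other being uniq_3504546 above, and then uniq_3933960, which had the widest spread within a group.
uniq_4043689: TgcaaagctAgaggctgtggctgtgc
uniq_11003: TtctgtctcAtgtgaatttaattcgttct
uniq_2817732: Tgcgagactttagaactctgtccagatgtg
uniq_2062705: Tgggcaagttactgtaccattctgtgtgtc
uniq_3933960: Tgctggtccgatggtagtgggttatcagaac

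Many shared sequences were end variants of one another. The leading member of each of 3 further large families with a common 5′ end is shown here with the common first 20 nt in capitals. The last of them has letters of the 3′ part of the 5S rRNA, and the table annotates none of them.
uniq_2330440: TGAAGTAGAACTTCTGCTCTgccgtgt
uniq_172762: CTGCTGATCGATGTGGTGATgctgtg
uniq_4993600: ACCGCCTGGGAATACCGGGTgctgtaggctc

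In 338 sequences the letters CTGA stood before the last 2 bases. The 6 most abundant of these are shown with CTGA in capitals, and with TGATGA in capitals where it starts at position 6. As background, CTGA and TGATGA are letters of the D box and the C box of box C/D snoRNAs, which lie near the ends of these RNAs.
uniq_2582624: ttccttttcagttggtctgtgctCTGAtt
uniq_3130864: ggttctgatgtcaaaacttaagttCTGAcc
uniq_4595452: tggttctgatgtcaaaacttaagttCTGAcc
uniq_3606004: tgaagTGATGAtaaagtctatCTGAgg
uniq_2987623: ccccatgatggaactgaggatCTGAga
uniq_4060153: ctctgtgctgattgtcacgttCTGAta

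Some shared sequences could pair with the 5′ end of another over 10 nt, as ping-pong partners do. Examples, which need not be the most abundant partners, are shown with those 10 nt in capitals. The first pairs with the next 2, and the fourth pairs with the fifth.
uniq_2085146: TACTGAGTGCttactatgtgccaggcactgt
uniq_2766432: GCACTCAGTAagtgttgaactcaaaccagg
uniq_2982701: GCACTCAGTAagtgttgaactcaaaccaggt
uniq_4332595: TGCAATCAGCtggggagggaactccagga
uniq_4901519: GCTGATTGCAgagcaatttacactgat

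By the group means of CPM, some 5′ ends held a shorter sequence that was higher in immature testis and a longer one that was higher in mature testis. As examples 3 such pairs are shown, longer sequence first, with the common first 20 nt in capitals.
uniq_4862028: TCAGCAACGTGTGGACGGCTcagggtt
uniq_3665934: TCAGCAACGTGTGGACGGCTcagggt
uniq_1432539: TGATTTATTCTGTGAACTGTcgtgctaga
uniq_1438791: TGATTTATTCTGTGAACTGTcgtgc
uniq_4522743: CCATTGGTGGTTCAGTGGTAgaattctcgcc
uniq_4115536: CCATTGGTGGTTCAGTGGTAgaattctcgc

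The libraries held 4139452, 4032042 and 4550970 reads in mature testis replicates 1, 2 and 3, and 1382083, 2347351 and 1462339 reads in immature testis replicates 1, 2 and 3. The shared sequences took 20.2, 18.7 and 19.4% of the reads of the mature libraries and 19.2, 23.5 and 17.2% of those of the immature libraries, a mean of 19.5% ± 0.751 in mature testis and 19.9% ± 3.22 in immature testis (SD, n = 3 each). The ranges overlap. The 95% Wilson intervals of these shares reached at most 0.0656 percentage points to either side. Such intervals cover counting error only, since reads were counted without molecular identifiers and need not be independent molecules. A count of 3 corresponds to 0.725, 0.744 and 0.659 CPM in the mature libraries and to 2.17, 1.28 and 2.05 CPM in the immature libraries.

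Immature replicate 1, the library with the fewest reads, decided the membership most often. Of 6388 sequences that reached 3 reads in exactly 5 libraries, 4509 (70.6%) missed in that library only. A sequence had a median of 232 reads over the 6 libraries, with a lowest total of 19 and a highest of 282067, and 207 of the 3628 had at least 30 reads in each library. The 1139 sequences just inside the limit, with a lowest count of 3, had a median total of 131 reads, and the 2719 sequences just outside it, with a lowest count of 2, had a median total of 109. T at position 1 was held by 86.0% of the sequences just inside and by 88.7% of those just outside.

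Some libraries stood apart within their group. Mature replicate 1 had more reads of the glycine tRNA family than the other mature libraries: the 43 shared sequences with the first 20 nt of uniq_2076883 summed to 13958, 2608 and 3866 CPM in mature replicates 1, 2 and 3. Immature replicate 2 had ranks nearer to those of the mature libraries than the other immature libraries had. No 2 libraries of a group agreed within counting noise, with a chi-square of 11.7 to 31.3 per sequence over the shared sequences. This shows only that none was a repeat count of another. Each library was counted as a sample, although the spread between them may be technical.

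The groups differed in their first ranks, but glycine-tRNA-like fragments stood high in both. In immature testis the first 4 ranks were held by fragments with the letters of the glycine tRNA or a variant of it, each lower in every mature library than in every immature library. In mature testis ranks 1 and 2 went to uniq_274482 and uniq_2089930, which are unnamed in the table. Both were higher in every mature library than in every immature library. Ranks 3 and 4 in mature testis were held by the glycine-tRNA-like uniq_2076883 and uniq_4072286. Of the 10 highest-ranked sequences of each group 1, uniq_2076883, was in both lists.

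The tRNA-like fragment uniq_2076883 had 7588, 986 and 1689.5 CPM in mature testis replicates 1, 2 and 3, against 32475, 60530.4 and 35575 CPM in immature testis replicates 1, 2 and 3. All mature libraries lay below all immature ones, and mature replicate 1 lay far above the other mature libraries. Its mean was 3421 CPM ± 3626 in mature testis and 42860.2 CPM ± 15381 in immature testis (SD, n = 3 each), 12.5-fold lower in mature testis, and it ranked 3 in mature and 1 in immature testis. Without mature replicate 1 its log2 ratio was -5.00 in place of -3.65. Its end variants had the same order of the groups. The variant uniq_3790290, which differs from it by C31T with positions counted from 1 at the 5′ end, had 2449, 407 and 550.0 CPM in the mature libraries, against 8110.2, 24851 and 14655 CPM in the immature libraries. The variant with C31A, uniq_3790284, had 1453, 219 and 317 CPM in the mature libraries, against 3663, 12959.7 and 7037 CPM in the immature libraries. The form without the last base, uniq_2080573, had 1009.5, 468 and 751 CPM in the mature libraries, against 26761, 13905 and 6447 CPM in the immature libraries. In these 3 variants too all mature libraries lay below all immature ones and mature replicate 1 was the highest of its group, and they were 14.0-, 11.9- and 21.1-fold lower in mature testis.

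Forms of the same fragment that begin with T had other ratios. At uniq_3181825, which differs from uniq_2076883 by G1T, the levels were 1566, 197 and 339.9 CPM in the mature libraries, against 908, 159.8 and 97.8 CPM in the immature libraries. The groups overlap, and the log2 ratio of mature over immature means was 0.85 on the CPM scale, -1.85 on the TMM scale explained next, and -0.53 on the CPM scale without mature replicate 1. The longer uniq_4072286 had 6026, 1053 and 1799.8 CPM in the mature libraries, against 1019, 269 and 449 CPM in the immature libraries. The mature libraries all lay above the immature ones there, and the log2 ratio of mature over immature means was 2.35 on the CPM scale. It was -0.31 after scaling by TMM factors (trimmed mean of M-values, which set a trimmed mean of the log2 ratios between libraries to 0), so its direction depends on the scale. With these factors the median log2 ratio over the 31788 sequences of the table that passed a filter on low counts was 0.62. Without mature replicate 1 the ratio of uniq_4072286 was 1.30 on the CPM scale.

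The pair uniq_4708970 and uniq_4708991, which begin like a glutamate tRNA, differ by G31T. The form with G, uniq_4708970, had 802, 1159 and 669.5 CPM in the mature libraries, against 3053, 2011 and 2096 CPM in the immature libraries. Its counterpart with T, uniq_4708991, had 2565, 1968 and 2147 CPM in the mature libraries, against 187, 1078 and 439.7 CPM in the immature libraries. The groups did not overlap in either form and their order was opposite, with log2 ratios of -1.44 for uniq_4708970 and 1.97 for uniq_4708991 on the CPM scale. On the TMM scale both were negative, -4.07 and -0.56.

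In mature testis uniq_274482 held rank 1, with 7699, 8538 and 7235 CPM in mature testis replicates 1, 2 and 3, against 199, 1806 and 769 CPM in immature testis replicates 1, 2 and 3. The mature libraries differed little, and the immature libraries differed 9.08-fold between the highest and the lowest. Its mean was 7824 CPM ± 660.4 in mature testis and 925 CPM ± 815 in immature testis (SD, n = 3 each), 8.46-fold higher in mature testis. It has T at position 1 and A at position 10. Second in mature testis was uniq_2089930, with 4820.2, 4497 and 4043 CPM in the mature libraries, against 96.2, 541 and 285 CPM in the immature libraries. It begins with C, has A at position 10, and was 14.5-fold higher in mature testis. On the TMM scale the log2 ratios were 0.56 for uniq_274482 and 1.32 for uniq_2089930.

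Although every shared sequence was present in all 6 libraries, few had similar levels in both groups. On the CPM scale 1416 of the 3628 were over 2-fold higher in mature testis, 1794 were over 2-fold higher in immature testis, and 418 (11.5%) lay within 2-fold. The first 2 classes are called mature-high and immature-high below. The log2 ratios of mature over immature means had a pair of peaks: 699 sequences lay between 3 and 4 and 558 between -3 and -2, against 147 between 0 and 1. The median was -0.94, with quartiles of -2.65 and 3.06, and the values ran from -7.28 to 5.56. The mature-high sequences took 83.9, 89.7 and 91.1% of the shared reads in mature libraries and 4.44, 10.4 and 9.29% in immature libraries. The immature-high sequences took 13.0, 7.79 and 6.82% in mature libraries and 91.4, 87.7 and 88.2% in immature libraries.

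These ratios use the counts that chose the sequences, so they are a description without a test. All mature libraries lay above all immature ones in 1404 shared sequences and below them in 1702. Of the 31788 sequences of the whole table that passed the filter on low counts, 77% had all mature libraries above and 20.2% had all below. Among the 3239 shared sequences that passed that filter, 1399 (43.2%) lay above and 1474 (45.5%) below. In edgeR's quasi-likelihood fit over the whole table with TMM factors and Benjamini-Hochberg adjusted p under 0.05, 8.41% of the tested sequences were called higher in mature testis and 21.9% higher in immature testis. Among the 3239 shared sequences, 138 were called higher in mature testis and 1828 in immature testis. These calls rest on the counts that chose the sequences, and the limit of 3 reads is a higher CPM in the immature libraries, so nothing is read from their balance. The calls higher in mature testis numbered 18 without immature replicate 3 and 468 without immature replicate 2. When library totals replaced TMM factors, the calls in the whole table were 77.7% higher in mature testis and 20.3% higher in immature testis, and among the shared sequences 1384 were higher in mature testis and 1485 in immature testis. The scale moved the median log2 ratio of all tested sequences by 2.52, and that of the shared ones by 2.61. With TMM factors that median was -3.12 for the shared sequences beside 0.62 for all tested, and with library totals it was -0.51 beside 3.15. On the TMM scale 578 shared sequences were over 2-fold higher in mature testis, 2291 over 2-fold higher in immature testis and 759 within 2-fold.

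The classes differed in length and first base. Among the 1416 mature-high sequences, 75.1% were 29 to 32 nt long and 94.4% began with T, among the 1794 immature-high sequences 40.6% and 70.5%, and among the 418 within 2-fold 50.2% and 93.1%. By length, the median log2 ratio was -1.74 at 25 nt, -1.91 at 26 nt, -2.24 at 27 nt, -1.42 at 28 nt, 0.71 at 29 nt, 3.10 at 30 nt, 1.49 at 31 nt and -1.78 at 32 nt, beside -0.94 over all 3628. By first base, it was -0.09 for the 2991 that began with T, -2.38 for the 220 with A, -2.23 for the 219 with C and -3.37 for the 198 with G. On the TMM scale the median over all 3628 was -3.56.

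Counted once each, the shared sequences had 2 length peaks, at 27 and at 29 nt. They numbered 98 at 25 nt, 422 at 26 nt, 727 at 27 nt, 380 at 28 nt, 819 at 29 nt, 618 at 30 nt, 471 at 31 nt and 93 at 32 nt. Those of 29 to 32 nt made up 55.2%, beside 63.7% of the 93406 other sequences with at least 18 reads in all libraries together, the least a shared sequence can have, and 40.2% of all 4933089 other sequences. The median GC content was 46.4% in the shared sequences, 46.4% in the 93406 and 46.7% in all others.

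T at position 1 was less frequent in the shared sequences than among the 93406 other sequences with at least 18 reads, 82.4% against 91.8%, and close to the 83.4% of all other sequences. The 93406 are not matched to the depth of the shared ones. In place of T, the shared sequences had 6.06% A, 6.04% C and 5.46% G. At position 2 G was the leading base in 33.1% of the shared and 39.4% of the others. At position 10 G led with 31.7% in the shared sequences, against 23.9% in the others, and A had 28.6% against 29.5%. Among sequences that did not begin with T, A at position 10 was held by 27.2% of the 637 shared and by 43.3% of the 7629 others. The second base from the 3′ end was A in 9.12% of the shared and in 10.99% of the others, and the last base was T in 35.4% and 36.1%. End variants share bases, so these shares are descriptions and were not tested.

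Weighted by reads, the base composition of the shared sequences differed between the groups by far more than the libraries of a group differed. Reads beginning with T made up 84.0, 88.3 and 88.8% of the shared reads in mature libraries 1, 2 and 3, against 41.2, 34.4 and 39.8% in immature libraries 1, 2 and 3. The means were 87.0% ± 2.67 in mature testis and 38.5% ± 3.62 in immature testis (SD, n = 3 each). Reads beginning with G, the first base of the glycine-tRNA-like fragments, took 8.44, 2.74 and 3.17% in mature and 49.3, 58.7 and 49.4% in immature libraries. A at position 10 was held by 32.2, 37.2 and 34.8% of the shared reads in mature libraries and 10.04, 10.20 and 12.41% in immature libraries, with means of 34.7% ± 2.54 in mature testis and 10.9% ± 1.32 in immature testis (SD, n = 3 each). In both measures the groups did not overlap. The exact two-sided permutation p was 0.1 for each, the smallest that 3 against 3 libraries can give, and 0.129 after Benjamini-Hochberg adjustment over 9 tests, so neither passed the threshold of 0.05.

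The glycine-tRNA-like group moved with these shares. It is the group of 110 shared sequences linked to uniq_2076883 by any common 18 nt, and it summed to 23788, 4426 and 6731 CPM in mature libraries and 88209.6, 132885 and 79633 CPM in immature libraries, or 5.98% of the mean shared level in mature testis and 50.3% in immature testis. Without it, reads beginning with T made up 90.3% ± 0.618 in mature testis and 74.8% ± 2.92 in immature testis (SD, n = 3 each), and reads with A at position 10 made up 36.9% ± 1.12 in mature testis and 21.6% ± 2.69 in immature testis (SD, n = 3 each). The differences were then 15.5 and 15.3 percentage points, beside 48.6 and 23.8 with the group, and the groups still did not overlap. Leaving out this group was chosen after the data were seen. Without the 100 most abundant shared sequences the differences were 24.8 percentage points for T at position 1 and 5.13 for A at position 10, again between groups that did not overlap.

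Reads of 29 to 32 nt made up 83.8, 82.2 and 82.1% of the shared reads in mature libraries and 72.0, 79.4 and 68.9% in immature libraries. The groups did not overlap, with means of 82.7% ± 0.951 in mature testis and 73.4% ± 5.37 in immature testis (SD, n = 3 each). The exact two-sided permutation p was 0.1, and 0.129 after adjustment. The separation was lost with a stricter minimum: among the sequences with at least 10 reads in each library the shares were 85.8, 83.5 and 84.0% in mature and 78.4, 84.7 and 75.5% in immature libraries, and the groups overlap. Their difference was 4.89 percentage points, and it was 4.43 for sequences chosen from thinned counts, where the groups overlap as well, beside 9.25 for all. The mean length was 29.5 nt ± 0.0774 in mature testis and 29.6 nt ± 0.239 in immature testis (SD, n = 3 each), and here the groups overlap (exact two-sided permutation p = 0.9, adjusted p = 0.9). The lengths that made up the long class differed: 30 nt took 32.7% ± 1.65 of shared reads in mature and 15.2% ± 5.69 in immature testis, and 31 nt, the length of uniq_2076883, took 21.5% ± 1.93 in mature and 46.8% ± 8.48 in immature testis. At 27 nt the shares were 6.28% ± 0.569 in mature testis and 13.2% ± 2.85 in immature testis. Without the 110 sequences of the glycine-tRNA-like group the reads of 29 to 32 nt took 81.8% ± 0.186 in mature testis and 51.9% ± 4.30 in immature testis (SD, n = 3 each), and the mean length was 29.4 nt ± 0.0413 in mature and 28.5 nt ± 0.190 in immature testis, which reverses the order of the mean lengths.

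Set against the other reads of the same library, the shared reads held a larger share of 29 to 32 nt in all 6 libraries. Reads of 29 to 32 nt exceeded those among the other reads by 14.2, 13.2 and 14.4 percentage points in mature libraries and by 46.0, 52.2 and 42.1 in immature libraries, a mean of 30.3 over the 6 libraries (exact two-sided sign-flip permutation p = 0.031, the smallest that 6 libraries allow, adjusted p = 0.129). With each sequence counted once, whatever its reads, the differences were -3.34, -2.72 and -1.31 in mature libraries and 28.96, 28.88 and 28.27 in immature libraries, so that the direction turned in the 3 mature libraries. In the other reads, 29 to 32 nt took 68.8% ± 0.936 in mature testis and 26.7% ± 0.572 in immature testis (SD, n = 3 each). T at position 1 was less frequent in the shared reads than in the other reads of all 6 libraries, with differences of -6.40, -2.12 and -1.71 percentage points in mature libraries and -42.1, -51.4 and -45.5 in immature libraries (mean difference -24.9, exact two-sided sign-flip permutation p = 0.031, adjusted p = 0.129). Without the glycine-tRNA-like group these T differences were 0.234, -0.835 and 0.172 in mature libraries and -10.1, -7.60 and -12.3 in immature libraries, so that the mature libraries no longer shared a direction, and without the 100 most abundant shared sequences they were 1.92, 1.74 and 2.11 in mature and -16.8, -17.2 and -17.8 in immature libraries. The difference in A at position 10 was 2.74, 7.54 and 5.77 percentage points in mature libraries and -21.4, -22.7 and -20.3 in immature libraries, opposite in sign (exact two-sided sign-flip permutation p = 0.25, adjusted p = 0.281). All these differences use the same list of sequences, chosen on the counts of all 6 libraries. The 6 libraries are thus not independent repeats, and nothing is read from these p-values. The rule also asks for reads in mature testis, where long reads were more frequent, and its effect on the immature differences was not tested.

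The order of the shared sequences was close to the same in the 3 mature libraries, less so in the 3 immature ones, and almost unrelated between the groups. Spearman's rho over the 3628 sequences was 0.917 to 0.934 between mature libraries and 0.612 to 0.792 between immature libraries. Between a mature and an immature library it was -0.255 to 0.263. These are correlations over sequences that share a library and its depth and in part their bases, so no p is given. Immature replicate 2 gave the highest values with the mature libraries and immature replicate 1 the lowest. The ranks of the group means had a rho of 0.0615, and of -0.0932 without immature replicate 2.

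The correlation between the groups was higher in some classes of sequence. For the 637 sequences that did not begin with T, rho of the group means was 0.448, beside 0.0780 for the 2991 that did. For the 207 sequences with at least 30 reads in each library it was 0.384. The 2001 of 29 to 32 nt had 0.159 and the 1627 of 25 to 28 nt had 0.0919. Without immature replicate 2 these values were 0.394 without T and -0.0993 with T at position 1, 0.301 for the 207, -0.0287 at 29 to 32 nt and 0.00588 at 25 to 28 nt, so that the values of the length classes rest on that library. The lists of the 50, 100, 500 and 1000 highest-ranked sequences of each group shared 11, 14, 67 and 208 sequences, which is 22%, 14%, 13.4% and 20.8% of each list.

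Between the groups the median change of rank was 1262.2 places, 2300 of the 3628 sequences (63.4%) moved by over 1000 places, 558 (15.4%) by over 2000, and 122 by at most 100. Within a group, a library set against the mean of the other 2 gave a median change of 162, 181 and 146 places for mature replicates 1, 2 and 3 and of 481, 454 and 312 places for immature replicates 1, 2 and 3. A gain of rank in mature testis was seen for 72.5% of the sequences of 30 nt and for 30.4% of those of 27 nt, and for 57.6% of those beginning with T and 8.08% of those beginning with G, beside 50.4% of all.

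Among sequences whose groups did not overlap, uniq_2081142 gained most. It had 643, 522 and 439 reads in mature libraries and 3, 9 and 3 reads in immature libraries, which is 155, 129 and 96.5 CPM in the mature libraries, against 2.17, 3.83 and 2.05 CPM in the immature libraries. Its rank was 361 in mature and 3457.5 in immature testis. The shorter form of it moved in the same direction. With the same 5′ end, uniq_2073955 had 124, 37.2 and 69.7 CPM in the mature libraries, against 2.17, 3.41 and 2.74 CPM in the immature libraries, and its rank was 659 in mature and 3421 in immature testis. The other 3 gainers, uniq_1724014, uniq_2680145 and uniq_4686341, had mature means of 94.5, 76.0 and 77.9 CPM and immature means of 2.93, 2.69 and 2.72 CPM. All 5 begin with T, are 29 to 31 nt long, and lie at 3 to 9 reads in the immature libraries, close to the limit of 3. On the TMM scale their log2 ratios stayed positive, at 2.21 to 2.99.

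The largest loss of rank was that of uniq_321222, of 27 nt, with C at position 1 and A at position 10. It had 4, 5 and 3 reads in mature libraries and 168, 172 and 112 reads in immature libraries, which is 0.966, 1.24 and 0.659 CPM in the mature libraries, against 122, 73.3 and 76.6 CPM in the immature libraries. Its rank was 3492 in mature and 218 in immature testis. Next was uniq_2496923, with 0.725, 1.24 and 1.10 CPM in the mature libraries, against 91.2, 111 and 67.0 CPM in the immature libraries, and a rank of 3458.5 in mature and 223 in immature testis. The last of the 5, uniq_4062144, had 0.966, 1.49 and 0.879 CPM in the mature libraries, against 44.9, 47.7 and 152 CPM in the immature libraries, with immature replicate 3 far above the others. All 5 that lost most ranks are 26 to 28 nt long and lie at 3 to 6 reads in the mature libraries. Leaving out any library kept the direction of all 10 rank changes, with gains of 2542 to 3220.5 places and losses, as negative changes, of -3302 to -2948 places. These 10 were picked as the largest changes in the same counts. Their direction could hardly turn, so this is not read as stability.

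The replicate spread of the shared sequences was smaller in mature testis than in immature testis. The median coefficient of variation of CPM over 3 libraries was 28.3% in mature testis and 44.2% in immature testis. The coefficient expected from counting error, computed for each sequence from its counts, had a median of 19.4% in mature and 26.04% in immature testis. A coefficient seen in 3 libraries tends to lie below its expected value, so the 2 are not directly comparable. The highest library exceeded the lowest 1.73-fold in mature and 2.41-fold in immature testis in the median. A range of over 2-fold within the group was found for 1283 sequences in mature and 2359 in immature testis, and one of over 5-fold for 120 in mature and 427 in immature testis. The coefficient of variation was the larger in immature testis for 2487 of the 3628 (68.6%). Among the 207 sequences with at least 30 reads in each library, where counting error is small in both groups (9.43% in mature and 6.73% in immature testis), the medians were 23.2% in mature and 37.9% in immature testis.

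The median spread and the counting error both differed by class. The 1416 mature-high sequences had a median coefficient of variation of 21.5% in mature and 53.6% in immature testis, and the 1794 immature-high ones 32.1% in mature and 38.7% in immature testis. The coefficient expected from counting error had a median of 5.96% in mature and 30.2% in immature testis for the mature-high ones. For the immature-high ones it was 33.4% in mature testis and 19.8% in immature testis. Since the 2 measures differ, the 33.4% is not read against the 32.1% seen there. The 1656 sequences of 29 to 32 nt that begin with T had a median log2 level of -3.50, -2.34 and -2.75 in immature replicates 1, 2 and 3 relative to the mature mean. Their median level was 32.7, 33.9 and 36.0 CPM in mature libraries and 4.34, 8.52 and 6.84 CPM in immature libraries, lowest in immature replicate 1 and highest of the immature ones in replicate 2. The 1627 sequences of 25 to 28 nt differed less between immature libraries, at 1.84, 1.68 and 1.98 relative to the mature mean.

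A few sequences differed little over the 6 libraries. The most even of those with at least 30 reads in each library was uniq_4043689, a 26 nt sequence with T at position 1 and A at position 10, with 25.6, 30.5 and 24.0 CPM in the mature libraries, against 30.4, 22.6 and 24.6 CPM in the immature libraries. Its highest library exceeded its lowest 1.35-fold, and the groups overlap. Next came uniq_11003, with 58.9, 69.7 and 45.0 CPM in the mature libraries, against 36.9, 43.9 and 37.6 CPM in the immature libraries, where the groups do not overlap and the range was 1.89-fold. The others, uniq_2817732, uniq_2062705 and uniq_3504546, had ranges of 2.07-, 2.20- and 2.23-fold. These 5 are even on the CPM scale only: on the TMM scale their log2 ratios were -3.16 to -2.04. They lost 331 to 590 ranks in mature testis.

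The widest spread within a group was that of uniq_3933960, with 215, 168 and 162 CPM in the mature libraries, against 493, 24.3 and 45.1 CPM in the immature libraries. Immature replicate 1 alone lay above the mature libraries, and without it the log2 ratio of mature over immature means was 2.39 in place of -0.05. All reads with its first 20 nt were 31 nt long. For uniq_274482 and uniq_358364, its form without the last base, the spread was again in immature testis, 9.08-fold and 9.82-fold, and immature replicate 1 was the lowest in both. The glycine-tRNA-like uniq_3181825 varied 7.96-fold in mature and 9.29-fold in immature testis, with replicate 1 the highest in each group. The variant uniq_3045444, which differs from uniq_2076883 by T5G, varied 9.20-fold in mature testis, where it had 593, 64.5 and 104 CPM in replicates 1, 2 and 3, against 1456, 1867 and 1065 CPM in the immature libraries.

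The shared sequences fell into families of end variants, and the 4 large families described here were immature-high. The 3628 sequences had 2134 distinct first 20 nt, of which 1487 belonged to a single sequence, and 2141 sequences (59.0%) shared their first 20 nt with another. These 4 families had 43, 22, 19 and 18 members. The glycine-tRNA-like family of 43 spanned 25 to 32 nt and summed to 6811 CPM ± 6222 in mature testis and 91957 CPM ± 28106 in immature testis (SD, n = 3 each), 13.5-fold lower in mature testis. In 42 of its 43 members all mature libraries lay below all immature ones, as they did in 46.9% of the 3628.

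The 3 other large families showed the same order. That of uniq_2330440, with 22 members of 26 to 30 nt, summed to 87.2, 118 and 108 CPM in the mature libraries, against 2049.8, 1803 and 1828 CPM in the immature libraries. That of uniq_172762, with 19 members of 26 to 32 nt, summed to 145, 181 and 188 CPM in the mature libraries, against 3184, 1690.4 and 1775 CPM in the immature libraries. All mature libraries lay below all immature ones in each of these 22 and 19 members. The 5S-rRNA-like family of uniq_4993600, with 18 members of 30 to 32 nt, summed to 484, 642 and 428 CPM in the mature libraries, against 1126, 1637 and 2761 CPM in the immature libraries, and 17 of its members had all mature libraries below. The sums were 18.2-, 13.0- and 3.55-fold lower in mature testis, and on the TMM scale the log2 ratios of these 4 families were lower still, at -6.80 to -4.40.

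Linking sequences by any common 18 nt gave 1525 groups. The 935 sequences linked to no other had a median log2 ratio of 1.91, the 1755 in groups of 2 to 9 had 0.51, and the 938 in the 39 groups of 10 or more had -2.57. Of these 39 large groups, 35 had a median below 0 on the CPM scale. Among the sequences linked to no other 68.3% gained rank in mature testis, and in the large groups 13.0% did. T at position 1 was held by 91.2% of those linked to no other and by 62.8% of those in large groups. The summed level of the large groups was 48101, 29923 and 26754 CPM in mature libraries and 155072, 189263 and 130637 CPM in immature libraries, and that of the sequences linked to no other was 42750.1, 40416 and 47106 CPM in mature and 8764, 10014 and 9292 CPM in immature libraries.

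One position relative to the 3′ end held the same letters in many shared sequences. CTGA followed by exactly 2 more bases was found in 338 of 3628 (9.32%), against 50 with 3 bases after it and 41 with 1. Among the 93406 other sequences with at least 18 reads it was found in 3354 (3.59%), and among all 4933089 others in 2.85%. Its reverse complement TCAG at the same place was found in 0.551% of the shared sequences, 0.813% of the 93406 and 0.958% of all others. The 338 sequences fell in 147 linked groups. The motif was chosen after the sequences were seen, and a match does not identify the RNA.

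Sequences with CTGA at that place were mostly immature-high. Their median log2 ratio was -2.84, beside -0.94 for all shared sequences. Of the 338, 283 (83.7%) lost rank in mature testis, while 50.4% of all shared sequences gained rank there. All mature libraries lay below all immature ones in 275 and above them in 33, beside 46.9% below and 38.7% above among all 3628. The 338 sequences took 2.79, 3.47 and 3.18% of the shared reads in mature libraries and 8.68, 5.34 and 8.64% in immature libraries. Among the reads of the 93406 other sequences, the same motif took 3.28, 3.24 and 3.16% in mature libraries and 9.16, 5.35 and 6.37% in immature libraries. The larger share in immature testis was thus not particular to the shared sequences. The 27 nt sequence uniq_3606004, which also has TGATGA from position 6, had 22.2, 81.1 and 40.4 CPM in the mature libraries, against 487, 434 and 661 CPM in the immature libraries. Nearly the same was seen for uniq_2987623, with 33.3, 53.8 and 26.1 CPM in the mature libraries, against 599.8, 476 and 499 CPM in the immature libraries. The pair uniq_3130864 and uniq_4595452, of 30 and 31 nt, had means of 43.7 and 56.3 CPM in mature testis and 649 and 584 CPM in immature testis. An exception was uniq_2582624, with 714, 665 and 741 CPM in the mature libraries, against 23.9, 102 and 43.8 CPM in the immature libraries, which was mature-high.

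TGATGA from position 6 was found in 72 shared sequences (1.98%), in 0.276% of the 93406 and in 0.182% of all others, and 50 of the 72 also had CTGA before the last 2 bases. These 50 took 0.160, 0.315 and 0.216% of the shared reads in mature libraries and 1.99, 1.15 and 1.93% in immature libraries. Among the reads of the 93406, sequences with both motifs took 0.00940, 0.0159 and 0.0126% in mature libraries and 0.841, 0.300 and 0.422% in immature libraries. The reverse complement TCATCA stood anywhere in 0.276% of the shared sequences, and TGATGA anywhere in 4.27%.

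Sequences with a possible ping-pong partner among the shared ones were few and took more of the reads in mature testis. In 124 sequences (3.42%) the first 10 nt could pair in full with those at the 5′ end of another shared sequence, against 22 to 57 with the window moved by 1 to 5 nt. They took 6.11, 7.34 and 6.35% of the shared reads in mature libraries and 2.06, 1.58 and 2.01% in immature libraries. Less the mean share of the moved windows, the values were 5.50, 6.72 and 5.63% in mature and 1.36, 1.20 and 1.33% in immature libraries, with means of 5.95% ± 0.672 in mature testis and 1.30% ± 0.0872 in immature testis (SD, n = 3 each). The groups did not overlap (exact two-sided permutation p = 0.1, the smallest possible, adjusted p = 0.129). Without the glycine-tRNA-like group the means were 6.31% ± 0.532 in mature and 2.59% ± 0.149 in immature testis. The difference, 4.65 percentage points, was 1.61 without the 100 most abundant shared sequences and 0.648 among the 773 with at least 10 reads in each library.

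The 124 sequences formed 144 pairs, of which 63 had T at position 1 in one partner only and 81 in both. In 115 pairs both partners had log2 ratios of the same sign, and in 41 of these both were higher in mature testis on the CPM scale and in the rest both were lower. The median log2 ratio of the 124 sequences was -0.53 on the CPM scale and -3.15 on the TMM scale, so the mature-high pairs named next do not stand for all. T at position 1 stands opposite A at position 10 by the pairing itself, so the 80.6% of these sequences with A at position 10 is no finding. The first pair shown, uniq_2085146 and uniq_2766432, had T and G at position 1. The first had 210.2, 278 and 284 CPM in the mature libraries, against 7.959, 19.60 and 28.04 CPM in the immature libraries. Its partner had 299, 514 and 365 CPM in the mature libraries, against 13.7, 58.4 and 37.6 CPM in the immature libraries. The form of the partner that is longer by a base, uniq_2982701, was 9.60-fold higher in mature testis. In the pair uniq_4332595 and uniq_4901519 the ratios of mature over immature means were 13.4 and 12.0. All 5 sequences had non-overlapping groups, and on the TMM scale their log2 ratios stayed positive, at 0.73 to 1.23. No genome of the table's build was used, so whether such partners come from opposite strands of one locus was not tested.

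Reads that started at the same place were longer in mature testis. Taking all reads of the table with the first 20 nt of a shared sequence, 1207 of the 2134 ends had at least 10 reads in each library. The mean length over these ends was 28.77, 28.78 and 28.73 nt in mature libraries and 28.31, 28.31 and 28.28 nt in immature libraries. The difference was 0.462 nt between non-overlapping groups with SDs of 0.0254 nt in mature and 0.0204 nt in immature testis (exact two-sided permutation p = 0.1, the smallest possible, adjusted p = 0.129). It was 0.292 nt with each distinct sequence counted once. The mean length was larger in mature testis at 989 ends (81.9%) and by at least 1 nt at 212 (17.6%). All mature libraries lay above all immature ones at 563 ends (46.6%) and below at 23. At the 310 other ends of the table with as many reads, which no shared sequence holds, the difference was 1.05 nt. The mean length was larger in mature testis at 93.2% of these other ends and by at least 1 nt at 161 (51.9%). All mature libraries lay above all immature ones at 218 of them (70.3%) and below at 0. Each of these shares in the mature direction was smaller at the shared ends, but the choice of ends favours this order. A shared end holds a sequence, and so a length, that reached the count minimum in every library of both groups. At the other ends no sequence did so, which favours lengths that are spread out or differ between the groups. Nothing is therefore read from the contrast between shared and other ends.

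Of the 5 even sequences, 4 showed this with non-overlapping groups, and at the end of uniq_3504546 the groups overlap. Reads with the first 20 nt of uniq_4043689 had a mean length of 28.3, 28.4 and 28.5 nt in mature libraries and 26.5, 27.1 and 26.7 nt in immature libraries, although the groups overlap in the level of its 26 nt form. At the end of uniq_2062705 the means were 29.3 nt ± 0.0588 in mature and 28.5 nt ± 0.0413 in immature testis (SD, n = 3 each). At the end of the glycine-tRNA-like uniq_2076883 the means were 30.5 nt ± 0.202 in mature and 30.6 nt ± 0.150 in immature testis, and the groups overlap.

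Within an end, the longest shared form had the higher ratio of mature over immature in 382 of 562 ends with shared sequences of 2 or more lengths (68.0%), by a median of 0.48 on the log2 scale. At 67 ends the shortest form was higher in immature and the longest higher in mature testis on the CPM scale, and on the TMM scale 45 ends had that order. The clearest of the pairs shown was uniq_1432539, of 29 nt, with 123, 150.0 and 80.2 CPM in the mature libraries, against 4.34, 8.95 and 13.7 CPM in the immature libraries. Its 25 nt form uniq_1438791 had 7.01, 8.18 and 5.93 CPM in the mature libraries, against 16.6, 13.2 and 25.3 CPM in the immature libraries. The groups did not overlap in either form. For the pair uniq_4862028 and uniq_3665934, of 27 and 26 nt, the log2 ratios were 2.00 and -0.32 on the CPM scale and -0.56 and -2.85 on the TMM scale. The groups overlap in the shorter of these, with immature replicate 1 below every mature library. The pair uniq_4522743 and uniq_4115536, which end like the glycine-tRNA-like fragments, had groups that overlap in both forms.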

How the data were processed

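Small RNA libraries of mature and immature testis, 3 each, were made from total RNA with a small RNA kit and selected by size on a gel, per the labels' protocols. The authors deposited whole-number read counts per distinct sequence, not normalized, per the file headers. Bowtie is named without a version, per the submitters' processing notes, and the sources used here give neither a genome build nor the rule by which sequences became piRNAs. The totals are those of called piRNAs, not sequencing depth. All 6 count columns were used, and 0 rows lacked a sequence.

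Members were rows with at least 3 reads in each library. The members and lists were chosen with earlier results of these data known, and the motifs, the linked groups and the example pairs after the sequences were seen. CPM are counts scaled to the library's total in the table. Counts were tested over the whole table with edgeR 4.0.16 in R 4.3.3 (quasi-likelihood test, TMM factors, filterByExpr defaults, Benjamini-Hochberg adjustment). The fit was checked on simulated counts in which few sequences changed, unlike these data, so that check does not cover the choice of scale. DESeq2 1.42.0 was an alternative. Shares and lengths were compared by exact two-sided permutation (3 against 3) or sign-flip over 6 libraries, with 9 tests adjusted together. Linked groups join members with any common 18 nt. Thinning drew 1382083 reads from each library. Named sequences were the 10 with the highest mean of the 2 group means, the 5 with the largest gain and the 5 with the largest loss of rank among those with non-overlapping groups, the 5 most even and the 5 widest within a group among those with at least 30 reads in each library, and the 5 largest 5′ end families. Of these, 1 abundant sequence and its family are not reported here. The leading motif examples were added by abundance. The pairs shown are examples and need not be the most abundant.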

Additional observations from a re-analysis of the deposited data

Results flagged for a closer look

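The difference between shared and other reads in A at position 10 had opposite signs in the 2 groups. Shared reads exceeded the other reads of their library by 2.74, 7.54 and 5.77 percentage points in the mature libraries, and fell short of them, with differences of -21.4, -22.7 and -20.3, in the immature libraries. The means were 5.35 ± 2.42 for mature testis and -21.5 ± 1.20 for immature testis (SD, n = 3 each), 26.8 percentage points apart (exact two-sided permutation p = 0.1 for the difference between the groups, the smallest possible). Without the 110 sequences linked to uniq_2076883 the differences were 6.993, 8.426 and 7.002 in mature and -13.0, -9.55 and -9.81 in immature libraries, with the signs kept. Without the 100 most abundant shared sequences they were -0.3543, 0.7668 and -1.006 in mature and -8.65, -7.83 and -8.37 in immature libraries, so that the mature libraries no longer shared a sign. With each sequence counted once they were -0.611, -0.849 and -0.337 in mature and -2.65, -3.95 and -3.79 in immature libraries, all negative.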

How the results depend on the processing

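The number of shared sequences depends on the count minimum: 3628 at 3 reads in each library, 17191 at 1, 1880 at 5, 773 at 10, and 2090 after thinning to the smallest library. The whole table gave 9648 calls with TMM factors, 31175 with library totals, 20642 with upper quartile factors, 86206 with no filter beyond 6 reads, 2212 at 10 CPM in 3 libraries, and 11035 to 15014 with a library left out, the highest without immature replicate 2. Shared sequences called higher in mature testis numbered 138, against 1384 with library totals, 891 with upper quartile factors, 537 with DESeq2, 1062 with no filter, 20 at 10 CPM, and 18 without immature replicate 3 to 468 without immature replicate 2. Those called higher in immature testis numbered 1828, 1810 to 1995 with a library left out, and 984 at 10 CPM.

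Deviations of replicates with the same number were close to uncorrelated over the sequences (correlations 0.0376, -0.0852 and 0.0102). Such values cannot exclude a shared preparation or batch, so they do not settle whether the numbers pair the libraries. With the replicate block the table gave 7484 calls, and 73 shared sequences were called higher in mature testis and 1756 in immature testis. The exact test within replicate numbers cannot give a p below 0.25.

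The difference in mean length, -0.0514 nt, was -0.137 to 0.0853 nt with a library left out and turned positive without immature replicate 2 (0.0853), without the 100 most abundant sequences (1.07) and without the linked group of uniq_2076883 (0.885). For shared minus other reads, 5 libraries cannot give a p below 0.0625, and as above nothing is read from these p-values. The difference in 29 to 32 nt was then 25.96 to 33.8 percentage points, and 13.1 (exact p = 0.25) with each sequence counted once. That in T at position 1 was -29.5 to -19.6, -7.66 (exact p = 0.25) without the 100 most abundant and -5.08 (exact p = 0.125) without the linked group. That in A at position 10 was -2.03 (exact p = 0.031) with each sequence counted once. The cause was not tested. Mature minus immature shares with each sequence counted once give no value, since every shared sequence is in every library.

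On the TMM scale, chosen after the data were seen, the log2 ratio turned negative for uniq_4072286 (-0.31), uniq_4708991 (-0.56), uniq_4043689 (-2.57), uniq_11003 (-2.04), uniq_2062705 (-2.19), uniq_3504546 (-2.33) and uniq_3181825 (-1.85). With a library left out the sign turned for uniq_4043689 (-0.0617 to 0.18), uniq_3504546 (-0.0721 to 0.65), uniq_3181825 (-0.53 to 2.44) and uniq_3933960 (-0.57 to 2.39). The exact tests of 3 against 3 libraries cannot pass 0.05 under any alternative, so their p-values say nothing about stability. The shared set depends on immature replicate 1, the only library missed by 4509 of 6388 near misses, against 557 for immature replicate 3, which had almost as few reads.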

Other observations

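Shared sequences with the letters of rRNAs formed large linked groups of their own. As background, uniq_2669417 has the letters of the 5′ end of the 18S rRNA, uniq_3141251 of a stretch further along it, and uniq_3577179 of the 28S rRNA. They are shown here with position 1 in capitals.
uniq_2669417: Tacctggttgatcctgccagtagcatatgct
uniq_3141251: Tacttggataactgtggtaattctagagc
uniq_3577179: Gttgaacatgggtcagtcggtcctgag

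The 17 shared sequences linked to uniq_2669417 summed to 261, 264 and 227 CPM in the mature libraries, against 1119, 1355 and 1653 CPM in the immature libraries. The 42 linked to uniq_3141251 summed to 188, 169 and 169 CPM in the mature libraries, against 946, 1296 and 1385 CPM in the immature libraries, and the 28 linked to uniq_3577179 to 297, 279 and 219.5 CPM in the mature libraries, against 1719.9, 1008 and 1246 CPM in the immature libraries. In each of these sums all mature libraries lay below all immature ones, and the sums were 5.49-, 6.91- and 5.00-fold lower in mature testis. The group of 35 that begins like the glutamate tRNA with anticodon TTC, linked to uniq_4708991, stood apart from these, with 6493, 5789 and 4789 CPM in the mature libraries, against 6469.9, 7572 and 5322 CPM in the immature libraries, where the groups overlap. No genome or annotation of these sequences was used, so the names rest on their letters alone.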
